A study of Rattus norvegicus with 23 samples.

Results

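The subject is the gene pair S100a8 (ENSRNOG00000011557) and S100a9 (ENSRNOG00000011483), 2 of the 26405 Ensembl rat genes counted by RNA-seq in the heart apex of kidney-transplanted rats. Their proteins are small calcium-binding members of the S100 family that join as calprotectin, a complex stored in large amounts in the cytosol of neutrophils and monocytes and released by them at sites of inflammation. Outside the cell calprotectin binds zinc and manganese and acts as a danger signal through receptors such as TLR4 and RAGE, and in the heart it is best known from the invasion of myeloid cells after injury. Both genes were chosen from these data because their mean was highest in one group, a healthy kidney in a recipient with chronic kidney disease (CKD), and low in another, a CKD kidney in a CKD recipient. Comparisons that involve those groups are therefore given as descriptions, with no test.

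The rats were inbred Lewis animals, so the grafts were isografts, and each library came from 1 rat, 6 weeks after transplantation. The groups were CD-CR (CKD recipients of a CKD donor kidney, n = 6), HD-CR (CKD recipients of a healthy donor kidney, n = 5), CD-HR (healthy recipients of a CKD donor kidney, n = 6) and HD-HR (healthy recipients of a healthy donor kidney, n = 6). CKD in donors and recipients had been produced by surgical loss of kidney mass followed by the nitric oxide synthase inhibitor L-NNA at 200 mg/L in the drinking water and 6% NaCl in the chow, and the heart's own response to these agents cannot be told apart from that to CKD in a CKD recipient. Rats in all 4 groups had a left kidney transplanted, lost the right native kidney 10 to 14 days later and were flushed with saline through the aorta before the heart was taken. Ages were not given in the sources used here.

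Library depth ran from 7391929 to 12444980 reads counted in genes. CD-CR1 stood apart from the other libraries, with the lowest rank correlation to them and the lowest share of reads in the 10 most abundant genes (48.8%, against 51.4 to 68.6% elsewhere). The deposited animal names begin with 12 for 5 of 6 CD-CR and 4 of 5 HD-CR rats and with 13 for the remaining 2 CKD recipients and all 12 healthy recipients. No source used here says what the prefix means, so values within a prefix are given beside the comparisons of groups that mix prefixes. The files pair identifiers with no gene names, and markers of heart muscle, neutrophils, monocytes or blood were for that reason not analysed here. In such bulk tissue, fewer cells of a type and less RNA per cell cannot be told apart.

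In the RefSeq annotation of the rat assembly GRCr8, S100a8 and S100a9 are next to each other on chromosome 2 with 0 annotated genes between them, in a run of S100 genes that also holds S100a4, S100a5, S100a6 and S100a7a. Of the 2 members, 1 matched the RefSeq promoter table (GRCr8), and its 300 bases are shown because the pair varied together between libraries. The window covers chr2:178490573-178490872 on the minus strand, from 250 bases before the annotated start of S100a9 to 50 bases after it. Capitals mark, in 5′ to 3′ order, a match to the core site of PU.1 on the opposite strand, a match to the C/EBP site on the opposite strand, a TATA box, and a second C/EBP match.
S100a9: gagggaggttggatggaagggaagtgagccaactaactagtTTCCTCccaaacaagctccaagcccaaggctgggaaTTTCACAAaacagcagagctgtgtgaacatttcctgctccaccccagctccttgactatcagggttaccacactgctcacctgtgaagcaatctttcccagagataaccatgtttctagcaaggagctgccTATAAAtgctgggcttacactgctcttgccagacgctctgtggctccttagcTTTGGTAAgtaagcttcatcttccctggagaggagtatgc

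PU.1 and members of the C/EBP family are among the transcription factors that act in myeloid cells, though not only there. The C/EBP letters searched, TTNNGNAA, were found 2 times, with first bases at -173 and 11 relative to the start, and 41.3% of 33469 rat promoter windows of this length hold them on either strand. GAGGAA, for PU.1, was found once, at -209, and 27.6% of the windows hold it. TATAAA was found at -42, and 14.2% of the windows hold it. No match overlapped another. The letters GGGA and CC with 4 bases between them for NF-kB (in 19.3% of the windows), TTCNNNGAA for STAT (8.87%), TGANTCA for AP-1 (7.33%) and CACGTG, the E-box (6.42%), are not in this window. All were searched on both strands, and a match is a description of the letters, not of a bound site.

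S100a8 codes for the smaller subunit of calprotectin. In CD-CR its level was 0.527 CPM (counts scaled to library size with the trimmed mean of M-values, TMM) in the lowest library, 1.56 at the median and 3.00 in the highest. The 5 HD-CR libraries had 9.33, 6.18, 9.51, 5.28 and 4.88 CPM. CD-HR ran from 2.86 through a median of 4.61 to 6.79 CPM, and HD-HR from 1.58 through 3.48 to 4.15 CPM. Every CD-CR library lay below every HD-CR library, and every HD-CR library lay above every HD-HR library, while CD-HR overlapped each of the other groups. The group means were 1.68 ± 0.996 CPM in CD-CR (SD, n = 6), 7.04 ± 2.23 in HD-CR (n = 5), 4.77 ± 1.35 in CD-HR (n = 6) and 3.21 ± 1.03 in HD-HR (n = 6). Ordered from high to low, HD-CR, CD-HR, HD-HR and CD-CR each overlapped the next group in the order.

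S100a9 codes for the larger subunit, which with S100A8 forms the metal-binding sites of the complex. Its level in CD-CR was 2.55 CPM in the lowest library, 4.37 at the median and 7.15 in the highest. HD-CR libraries had 22.4, 13.3, 20.1, 11.5 and 14.3 CPM. CD-HR ran from 6.52 through 8.84 to 12.1 CPM and HD-HR from 3.60 through 7.94 to 12.3 CPM. As for S100a8, all 6 CD-CR libraries lay below all 5 HD-CR libraries. HD-CR and HD-HR overlapped for this gene, since HD-CR4 (11.5 CPM) lay below HD-HR1 (12.3 CPM). Group means were 4.86 ± 1.87 CPM in CD-CR (SD, n = 6), 16.3 ± 4.69 in HD-CR (n = 5), 9.14 ± 2.60 in CD-HR (n = 6) and 7.94 ± 2.84 in HD-HR (n = 6). The order was the same as for S100a8, again with an overlap between each group and the next. CPM values are not per length, so the levels of the 2 genes are not compared with each other.

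**Figure D1:**
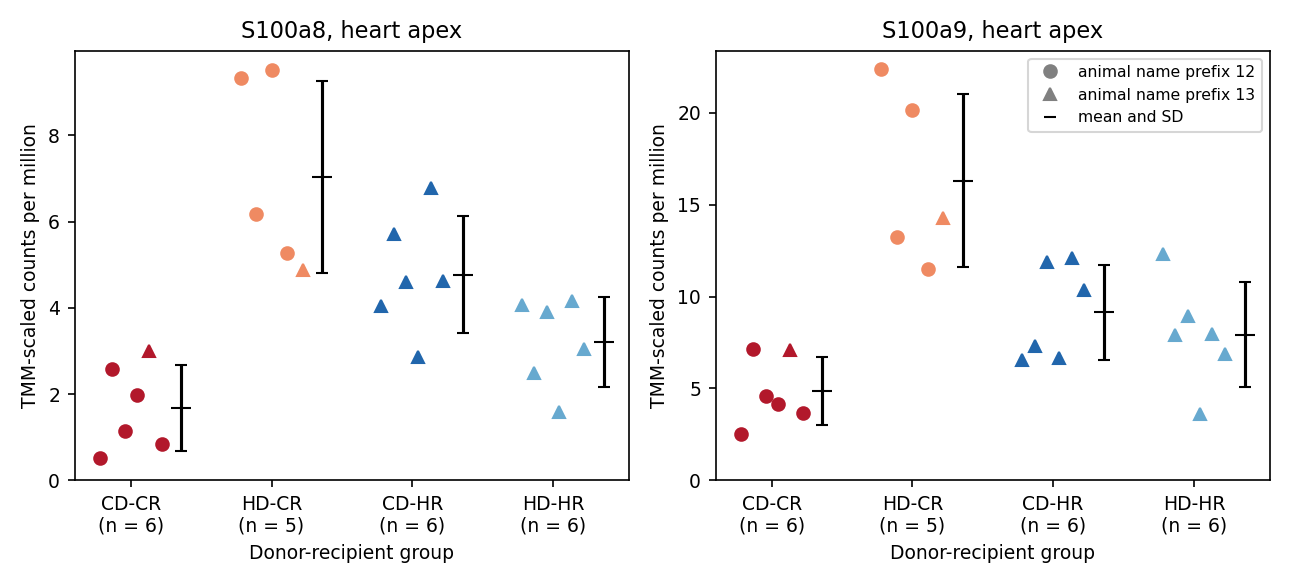
Level of S100a8 (left) and S100a9 (right) in each of the 23 heart libraries, in TMM-scaled CPM, by group, with the group mean and SD as a bar beside the points and the marker showing the prefix of the animal name. For both genes the 5 HD-CR libraries sit above all 6 CD-CR libraries, and the means of CD-HR and HD-HR lie between those of HD-CR and CD-CR.

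Behind these levels are few reads. S100a8 had 6 reads in CD-CR1, with an exact 95% Poisson interval of 2.20 to 13.1 that covers counting error only, and 105 reads in HD-CR1 (85.9 to 127.1). S100a9 had 29 to 75 reads per library in CD-CR, 111 to 252 in HD-CR, 55 to 116 in CD-HR and 32 to 121 in HD-HR. In CD-HR all 6 libraries held nearly the same number of S100a8 reads, 39 to 45. The spread of S100a8 in CPM in that group thus follows the scaling of the libraries, which combines depth (7391929 to 12169291) with the TMM factors. From lowest to highest library, CPM differed 2.37-fold and depth 1.65-fold.

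With a CKD donor kidney rather than a healthy one, CKD recipients had less of both transcripts. The CD-CR mean of S100a8 was 4.27-fold below that of HD-CR in the fitted model (log2 fold change -2.09 ± 0.32, SE), and that of S100a9 was 3.37-fold below (-1.75 ± 0.27). This is the contrast on which the genes were chosen. Of 11568 genes that passed the filter on low counts, 43 (0.372%) had every CD-CR library below every HD-CR library, both members among them. In 636 genes (5.50%) HD-CR had the highest and CD-CR the lowest of the 4 group means, and 29 of those also had no overlap between CD-CR and HD-CR. Without CD-CR1, the library that stood apart, the log2 fold changes were -1.90 for S100a8 and -1.62 for S100a9. Among libraries of prefix 12, with 5 CD-CR and 4 HD-CR rats, they were -2.43 ± 0.36 and -1.93 ± 0.28 (SE). In the single pair of CKD recipients of prefix 13, S100a8 stood at 3.00 CPM in CD-CR5 and 4.88 CPM in HD-CR5, and S100a9 at 7.08 CPM in CD-CR5 and 14.3 CPM in HD-CR5.

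Against healthy recipients, the CKD recipients differed in opposite directions according to the kidney they had received. The choice of genes highest in HD-CR and low in CD-CR favoured these directions, so they are no separate finding. With a healthy kidney, HD-CR had a higher mean than HD-HR, with log2 fold changes of 1.14 ± 0.30 (SE) for S100a8 and 1.04 ± 0.26 for S100a9. Every HD-CR library lay above every HD-HR library in 1.82% of the genes tested, S100a8 among them and S100a9 not. With a CKD kidney, CD-CR had a lower mean than CD-HR, 2.83-fold for S100a8 (SE 0.32 on the log2 scale) and 1.87-fold for S100a9 (log2 fold change -0.90 ± 0.27), and 5 and 4 of the 6 CD-CR libraries lay below the lowest CD-HR library. Full separation in this direction was seen in 0.415% of the genes tested, neither member among them. CD-CR against HD-HR gave log2 fold changes of -0.96 ± 0.33 for S100a8 and -0.71 ± 0.27 for S100a9, with overlap in both genes, while 0.968% of the genes tested had every CD-CR library below every HD-HR library. These comparisons share groups and are no independent evidence of each other.

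The comparisons with healthy recipients can hardly be told apart from the prefix of the animal names. For HD-CR as for CD-CR, the log2 fold changes of both genes were smaller in size among rats of prefix 13. Each of those values rests on 1 CKD recipient. Within prefix 13, where HD-CR and CD-CR have 1 rat each, HD-CR5 against HD-HR gave log2 fold changes of 0.65 ± 0.43 for S100a8 and 0.89 ± 0.41 for S100a9 (SE, taking the lone rat to vary like the other groups). CD-CR5 against CD-HR gave -0.63 ± 0.48 and -0.35 ± 0.47. CD-CR5 against HD-HR gave -0.08 ± 0.48 and -0.15 ± 0.46, and its levels of 3.00 and 7.08 CPM lay inside the HD-HR ranges of both genes. The part of the prefix in these differences was not tested. With the prefix as a covariate, CD-CR against CD-HR was -1.35 ± 0.49 for S100a8 and -0.73 ± 0.40 for S100a9. CD-CR against HD-HR was -0.81 ± 0.48 for S100a8 and -0.54 ± 0.40 for S100a9, and HD-CR against HD-HR was 1.30 ± 0.48 and 1.22 ± 0.39. This covariate assumes 1 common shift, and only CD-CR5 and HD-CR5 set it apart from the groups. They deviated from their group means in opposite directions (S100a8 0.96 and -0.46, S100a9 0.61 and -0.14 in log2 CPM). The adjusted values therefore do not show what the prefix contributed.

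**Figure D2:**
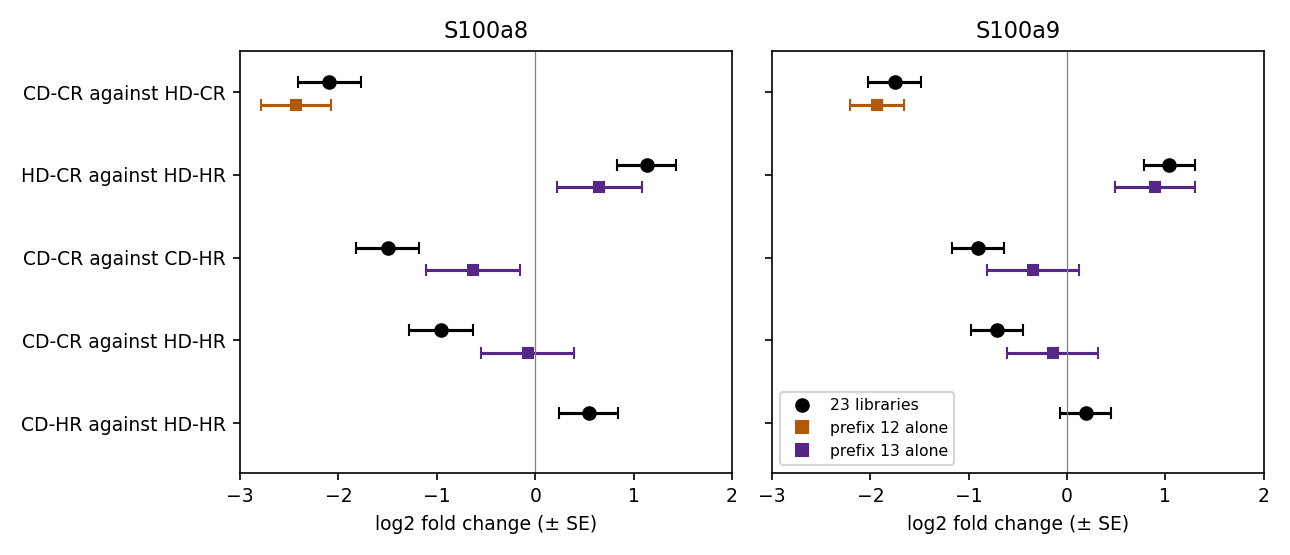
Fitted log2 fold changes with standard errors for S100a8 (left) and S100a9 (right), first-named group over the second, from all 23 libraries (black circles) and from libraries of one animal name prefix alone (squares). CD-CR against HD-CR lay at -2.09 and -1.75, and the prefix 13 value of CD-CR against HD-HR lay near 0 for both genes.

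Whether a CKD kidney goes with more or less calprotectin transcript in the heart of a healthy recipient is the pairwise comparison that the choice of the genes did not use. CD-HR averaged 1.46-fold the S100a8 level of HD-HR (log2 fold change 0.54 ± 0.30 SE, 95% interval -0.07 to 1.16), and 4 of 6 CD-HR libraries lay above the highest HD-HR library. The difference did not pass (adjusted p = 0.703 by edgeR's quasi-likelihood test with Benjamini-Hochberg adjustment over 11568 genes). S100a9 was at 1.14-fold (log2 fold change 0.19 ± 0.26 SE, 95% interval -0.34 to 0.72, adjusted p = 0.904 by edgeR), and no CD-HR library lay above the highest HD-HR library. The intervals allow a change of S100a8 between 0.952-fold and 2.23-fold and of S100a9 between 0.790-fold and 1.65-fold. In this comparison edgeR called 0 of the 11568 genes (0%), with 879 at an unadjusted p under 0.05, and DESeq2 called 7 genes and limma-voom 0. CD-HR5, the CD-HR library with the most S100a8 (6.79 CPM) and S100a9 (12.1 CPM), also had the lowest depth of all and 10.7 non-unique alignments per counted read, against at most 3.67 in the other libraries. Without it the S100a8 difference was 0.43 (adjusted p = 0.859 by edgeR).

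S100a8 and S100a9 also varied together from rat to rat within the groups, which the choice by group levels did not use. Each gene's log2 CPM was set against the mean of its group, and in 19 of 23 libraries both deviated in the same direction. All 5 HD-CR rats did so, with HD-CR1 (0.45 for S100a8 and 0.50 for S100a9) and HD-CR3 (0.48 and 0.35) above the group mean in both genes. The same held for 5 of 6 CD-CR, 4 of 6 CD-HR and 5 of 6 HD-HR rats. Some signs rest on deviations near 0. Among rats counted as alike these were S100a9 in CD-CR3 (-0.0022) and S100a8 in CD-HR6 (0.0015) and HD-HR6 (-0.0018). Among those counted as opposite it was S100a8 in CD-HR3 (-0.0030). Over all 23 libraries the deviations had a Pearson r of 0.833 (permutation p = 1e-05, the smallest that 100000 two-sided resamples within groups can give) and a Spearman rho of 0.826 (permutation p = 1e-05). Without CD-CR1 and CD-CR5, the libraries farthest from the median, r was 0.781. Without CD-CR5 and HD-CR5, so that every group held rats of 1 prefix, it was 0.820 (permutation p = 4e-05), a check added after the values had been seen. Of the 11031 other genes averaging 1 CPM or more, 0 had a higher r with S100a8 than S100a9 did after group means were removed, and the median r of these genes with S100a8 was 0.002. The lead was narrow. ENSRNOG00000013280 and ENSRNOG00000003745, described below, had r values of 0.831 and 0.814 with S100a8, so such an r was not particular to the pair.

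Within single groups each r comes from 6 rats. CD-CR had r = 0.926 and rho = 0.886 over 6 rats (two-sided exact permutation p = 0.0111 and 0.0333, adjusted over 3 groups 0.0333 and 0.100). HD-HR had r = 0.878 and rho = 0.771 (exact p = 0.0292 and 0.103, adjusted 0.0437 and 0.136). CD-HR had r = 0.590 and rho = 0.714 (exact p = 0.250 and 0.136, adjusted 0.250 and 0.136). Leaving out the 2 rats farthest from the median of S100a8 left r at 0.783 in CD-CR, 0.653 in HD-HR and -0.008 in CD-HR. With 4 rats left, the smallest adjusted p that the exact permutation test could give in CD-CR or HD-HR was 0.0625, so these values are given without a call. Without CD-CR5, the CD-CR rat of prefix 13 and the highest of its group in S100a8, r in CD-CR was 0.894 (exact permutation, adjusted p = 0.0625). In CD-HR, where S100a8 reads hardly differed, r was 0.297 when the libraries were scaled by their total counts alone, against 0.590 with TMM. HD-CR, with 5 rats, was given no r.

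**Figure D3:**
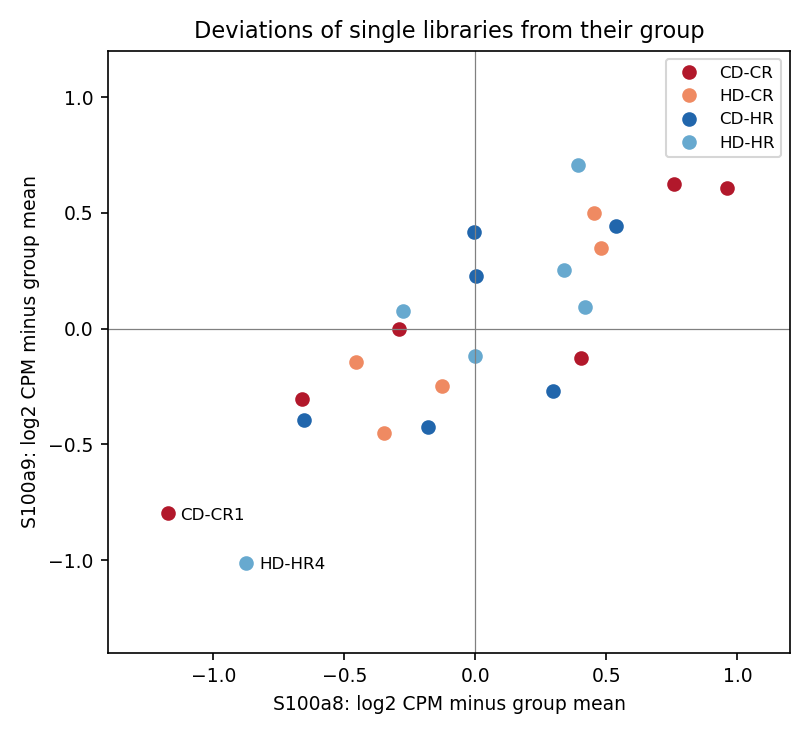
Deviation of each library from its group mean for S100a8 (horizontal axis) and S100a9 (vertical axis), both in log2 CPM, with 1 point per rat and the group as colour. Points run from the lower left, where CD-CR1 and HD-HR4 lie, to the upper right. Of the 23 points, 19 lie in the quadrants where both genes deviate the same way, with CD-CR3, CD-HR6 and HD-HR6 almost on an axis.

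The rats lowest in both genes within their groups, CD-CR1 and HD-HR4, also differed in measures of the library. CD-CR1 had the lowest depth (7801127 reads), the lowest share of the 10 most abundant genes (48.8%) and the highest number of non-unique alignments per counted read (2.67) of the CD-CR libraries. HD-HR4 was likewise lowest in depth (7605675 reads) and in that share (55.03%), and highest in non-unique alignments (3.61), of the HD-HR libraries. In CD-HR, the rat with the lowest depth and the most non-unique alignments, CD-HR5 (7391929 reads and 10.7), was instead highest in both genes. Its share of the 10 most abundant genes was the highest of its group (68.6%). Without CD-CR1 and HD-HR4 the deviations of the remaining libraries had r = 0.740 (permutation p = 0.00114). When the top-10 share was removed together with the group means, r was 0.752 (permutation p = 0.00037), and with the ratio of non-unique alignments removed it was 0.824 (permutation p = 1e-05). These 3 checks were added after the values had been seen.

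Both genes varied more between rats of one group than most genes of like abundance. The biological coefficient of variation fitted by edgeR was 32.1% for S100a8, against a median of 20.3% over 3560 genes within 2-fold of its mean level, 88.9% of which had a lower value. For S100a9 it was 29.4%, against 16.9% over 4256 genes, 92.6% of which were lower.

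Since both genes are read in the same library, the share of S100a8 in the reads of the pair needs no scaling between libraries. It averaged 24.0 ± 6.29% in CD-CR (SD, n = 6), 30.0 ± 2.77% in HD-CR (n = 5), 34.5 ± 6.02% in CD-HR (n = 6) and 29.1 ± 3.93% in HD-HR (n = 6). In CD-CR1 the share was 17.1% of 35 reads, with an exact 95% Clopper-Pearson interval of 6.56 to 33.6%, and in CD-HR2 it was 43.9% of 98 reads (33.9 to 54.3%). HD-CR was the narrowest group, with 25.5 to 32.1% in its 5 libraries. Each of these held more reads of the pair than any library of the other groups, and counting error in a share shrinks with more reads. Whether the share varied less between HD-CR rats beyond counting error was not tested, neither here nor within prefix 12. Among rats of prefix 12 the share averaged 22.9 ± 6.29% in CD-CR (SD, n = 5) and 31.2 ± 1.21% in HD-CR (n = 4), while the single rats of prefix 13 had 29.8% in CD-CR5 and 25.5% in HD-CR5. Over all reads of a group the share was 25.3% of 380 reads in CD-CR and 30.3% of 1241 reads in HD-CR. Between CD-HR and HD-HR, the comparison open to a test, the log2 ratio of S100a9 to S100a8 reads averaged 0.94 in CD-HR and 1.29 in HD-HR, a difference of -0.35 that did not pass (two-sided exact permutation p = 0.102 over 924 splits). Leaving out each of the 12 libraries in turn gave differences of -0.44 to -0.24 (exact permutation p = 0.0498 to 0.201). Only the run without CD-HR3 fell under 0.05, and this test was added after the values had been seen.

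**Figure D4:**
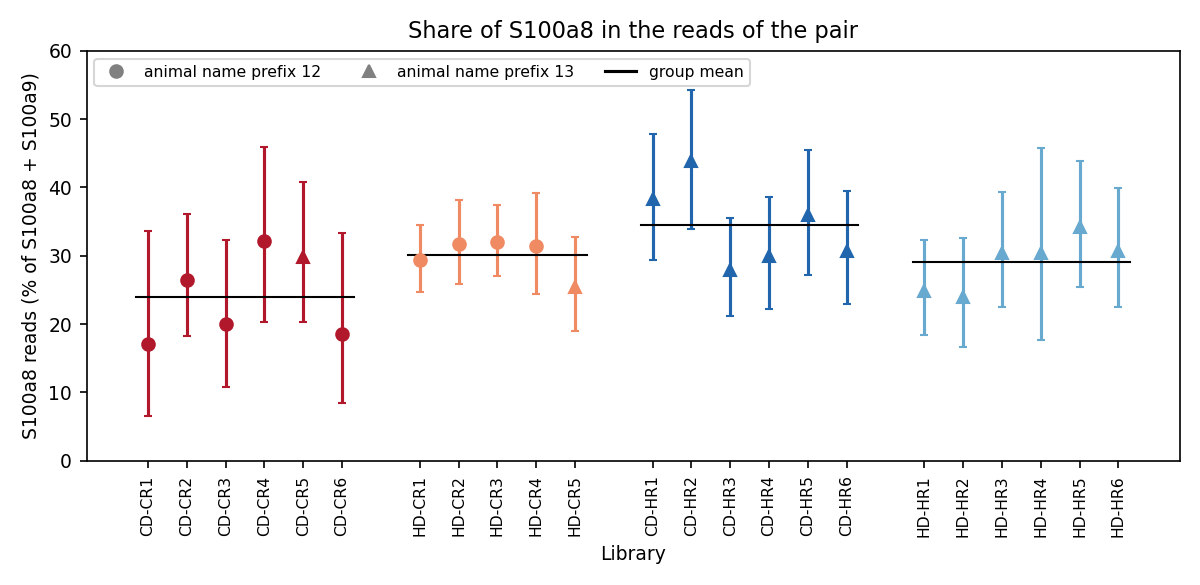
Share of S100a8 in the summed reads of S100a8 and S100a9 for each library, in percent, with exact 95% binomial intervals and the group means as horizontal lines. Group means lie between 24.0% in CD-CR and 34.5% in CD-HR, and most library intervals overlap.

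The genes whose levels followed the pair most closely are given by identifier, since the files pair them with no names. Over all 23 libraries, ENSRNOG00000013280 had the highest Pearson r with the mean of the 2 standardized genes (0.893 among 11030 genes), followed by ENSRNOG00000009919 (0.871). ENSRNOG00000013280 averaged 1.29 ± 0.851 CPM in CD-CR (SD, n = 6), 3.85 ± 1.09 in HD-CR (n = 5), 2.28 ± 0.900 in CD-HR (n = 6) and 1.96 ± 0.715 in HD-HR (n = 6), the group order of S100a8 and S100a9. Among rats of prefix 12 it averaged 1.07 ± 0.734 CPM in CD-CR (n = 5) and 4.12 ± 1.05 in HD-CR (n = 4), and the rats of prefix 13 had 2.399 CPM in CD-CR5 and 2.79 CPM in HD-CR5. ENSRNOG00000009919 averaged 2.25 ± 1.49 CPM in CD-CR (n = 6), 7.25 ± 2.19 in HD-CR (n = 5), 3.27 ± 0.796 in CD-HR (n = 6) and 3.37 ± 1.41 in HD-HR (n = 6). Its prefix 12 means were 1.86 ± 1.27 CPM in CD-CR (n = 5) and 7.47 ± 2.47 in HD-CR (n = 4), with 4.20 CPM in CD-CR5 and 6.39 CPM in HD-CR5. With group means removed, ENSRNOG00000013280 again came first (r = 0.822) and ENSRNOG00000003745 second (r = 0.811). ENSRNOG00000003745 averaged 25.7 ± 17.8 CPM in CD-CR, 26.99 ± 5.10 in HD-CR, 24.2 ± 7.72 in CD-HR and 24.4 ± 11.2 in HD-HR. All 3 genes were lowest in CD-CR1 within CD-CR and in HD-HR4 within HD-HR, the rats lowest in both members. ENSRNOG00000013280 and ENSRNOG00000009919 each stood at only 0.0878 CPM in CD-CR1. Without these 2 libraries, a check added after the values had been seen, r over the 21 others was 0.860 for ENSRNOG00000013280 and 0.851 for ENSRNOG00000009919, which kept ranks 1 and 2. With group means removed it was 0.740 for ENSRNOG00000013280 (rank 4, from 1) and 0.761 for ENSRNOG00000009919 (rank 2, from 4). For ENSRNOG00000003745 it was 0.704 (rank 6, from 2). ENSRNOG00000003745 had r = 0.619 (rank 80) over all 23 libraries before group means were removed, and 0.309 (rank 1394) without CD-CR1 and HD-HR4. These r values share the libraries and their scaling and are given as descriptions.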

How the data were processed

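The authors deposited 1 file of read counts per library, with 26405 Ensembl rat genes and 5 summary lines, which entered neither library sizes nor the main fit. The line of non-unique alignments served for a covariate and for a check of the correlation. Build Rnor_5.0 and the tools HTSeq 0.6.1p1, STAR 2.4.2a and Picard are named in the submitters' processing notes. Per the labels' protocols the RNA was poly(A)-selected and the libraries directional, while the sources used here give no annotation release, strand setting or handling of duplicates, so reads shared with overlapping, antisense or near-identical genes may be misassigned. Titles gave the groups and replicate numbers, and S100a8 and S100a9 were taken by their identifiers.

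The 23 libraries were fitted together in edgeR 4.0.16 (R 4.3.3), after filterByExpr and TMM scaling, with robust glmQLFit and glmQLFTest. Log2 CPM used a prior count of 2. Calls needed an adjusted p (Benjamini-Hochberg) under 0.05. SE is the log2 fold change over the square root of F. The fit was first tested on simulated data. No pair of libraries within a group agreed within sampling noise (lowest chi-square per degree of freedom 8.38). The edgeR p-values set a group difference against the spread between these libraries. Permutation p-values give the share of rearrangements with a value at least as large in size.

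The members and the lists were chosen with earlier results of these data known. The 11 lists of 136 other genes, given by symbol, were not tested, because the reference table holds 0 Ensembl rat identifiers. Genes with a like pattern were named by the highest Pearson r, the first 2 over all libraries and the first 2 with group means removed. Alternatives were RLE or total-count scaling, no filter, limma-voom 3.58.1, DESeq2 1.42.0, covariates, subsets and leaving out each library.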

Additional observations from a re-analysis of the deposited data

How the results depend on the processing

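For CD-HR against HD-HR, S100a8 stayed positive and short of the threshold under all 10 alternatives (log2 0.49 to 0.58, adjusted p 0.577 to 0.9998) and without each library (0.41 to 0.67), as did S100a9 (0.15 to 0.25, adjusted p 0.855 to 0.9998, and 0.04 to 0.35). Genes called there numbered 7 by DESeq2, 0 under the other alternatives, and 0 to 1 without each library (1 without CD-HR6). CD-CR against HD-CR stayed between -2.43 and -1.90 for S100a8 and between -1.93 and -1.61 for S100a9. Within prefix 13, CD-CR against CD-HR was -0.63 and -0.35, and against HD-HR -0.077 and -0.15, for S100a8 and S100a9; the cause was not tested. No other alternative moved these values by more than 1 SD between rats.

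The replicate number as a block changed no call for either gene (CD-HR against HD-HR 0.56 for S100a8 and 0.22 for S100a9, with 0 genes called). Libraries with the same number in CD-HR and HD-HR deviated with correlations of -0.14 to 0.31, not every one above 0.1, and 4 of these 6 numbers correlated best with their own. No source used here says what a number marks, and whether the numbers pair the rats was not settled. The permutations of the correlations and of the read ratio took the rats as unpaired and were not run with this block.

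The correlation of deviations from group means was 0.754 with total counts and 0.796 to 0.866 without each library, and passed each time. Within HD-HR and CD-CR the call was lost with Spearman's rho (0.771 and 0.886) and with total counts (0.823 and 0.868). Without the 2 libraries farthest from the median, the values were 0.653 in HD-HR, 0.783 in CD-CR and -0.0077 in CD-HR; 4 rats could not reach the adjusted threshold in HD-HR or CD-CR. Leaving out single rats gave 0.542 to 0.932 in HD-HR, 0.382 to 0.797 in CD-HR and 0.857 to 0.987 in CD-CR. The call held only without HD-HR5 in HD-HR and only without CD-CR4 in CD-CR, with 5 rats left. The log2 ratio of S100a9 to S100a8 reads differed by -0.44 to -0.24 without each library (exact permutation p = 0.0498 to 0.201). Depth limits S100a8 most in CD-CR, where it had 6 to 27 reads. The alternatives for other gene lists were not run, since no list could be matched.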
